A study of Rattus norvegicus with 2 samples.

Results

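Collagen genes are described here through their circular RNAs (circRNAs), closed RNA loops formed by splicing a later exon end back to an earlier exon start. The RNA was sequenced in a series on bone cancer pain in rats. The members are the back-splice junctions, the joins that mark a circRNA, whose host field in the deposited table holds 1 name and that name is COL3A1, COL4A1, COL4A2, COL5A1, COL5A2, COL8A1, COL12A1, COL18A1 or COL25A1. These were 50 junctions of 9 genes, out of 17260 junctions considered and 15107 with 1 host gene, from 4992 host genes. Bone cancer pain animals had live Walker256 rat carcinoma cells, grown beforehand in the peritoneal cavity of SD rats, placed in the marrow cavity of the tibia, whereas controls underwent that operation with Walker256 cells boiled for 20 minutes. Both groups comprised 3 rats killed 21 days after surgery, and each gave 1 library, called the control library and the pain library below. The labels do not state pooling, and they give the RNA source both as ascites-derived Walker256 cancer cells and as spinal cord cells. With 1 library per group there was no replicate and no test between conditions, so each ratio compares 2 libraries.

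Collagens are secreted or membrane proteins in which 3 chains wind into a triple helix built from repeats of glycine and 2 further amino acids. Fibrillar collagens (types III and V here) assemble into fibres with type I collagen, network collagens (types IV and VIII) form sheets in basement membranes and around vessels, and other types decorate fibrils, carry sugar chains or span the cell membrane. A circRNA of a collagen gene takes up part of the exons of its transcript, so junction reads report neither the linear mRNA nor the protein. COL8A1 is of interest because the series design lists its protein among those measured by Western blot, alongside ERK.

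The libraries held 159941 (control) and 151685 (pain) circular junction reads. No listed value was below 2 reads, so a junction not listed in a library may still have had 1. Positions are given as in the table, which names no genome build and uses human-style symbols and circBase identifiers, circBase being a catalogue of published circRNAs. All 9 collagens have a rat gene of the same name in the RefSeq rat gene table (GRCr8), and 0 of the 9 lay on the chromosome number given for them here, so the positions are not those of the rat assembly. Both groups are therefore named as the libraries so labelled. Intervals below are exact, at 95%, and cover counting error only.

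Summed over the 50 junctions, the collagens took 162 control reads and 241 pain-library reads, which is 1013 and 1589 reads out of every 1000000 circular junction reads (RPM). The ratio of these library shares, pain over control, was 1.57 (1.28 to 1.93). Leaving out each gene in turn moved it between 1.39 without COL3A1 and 1.78 without COL8A1. Fewer cells of a type and less RNA per cell cannot be told apart in such bulk libraries. The terms higher and lower refer to size alone, a ratio of at least 2 or at most 0.5 after adding 0.5 reads to each library, and only with 10 or more reads over both. By that size, 3 of the 6 collagens with enough reads were higher (COL3A1, COL4A1 and COL4A2), 0 were lower, and COL5A1, COL5A2 and COL8A1 lay between. Of all 3037 hosts with 10 or more reads, 13.3% were 2-fold higher and 14.2% were 2-fold lower. For the 3 higher collagens the interval also lay above 1, which held together with the 2-fold size for 7.05% of hosts. The median log2 ratio was 0.80 over the 6 collagens and -0.03 over all 3037 hosts.

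**Figure D1:**
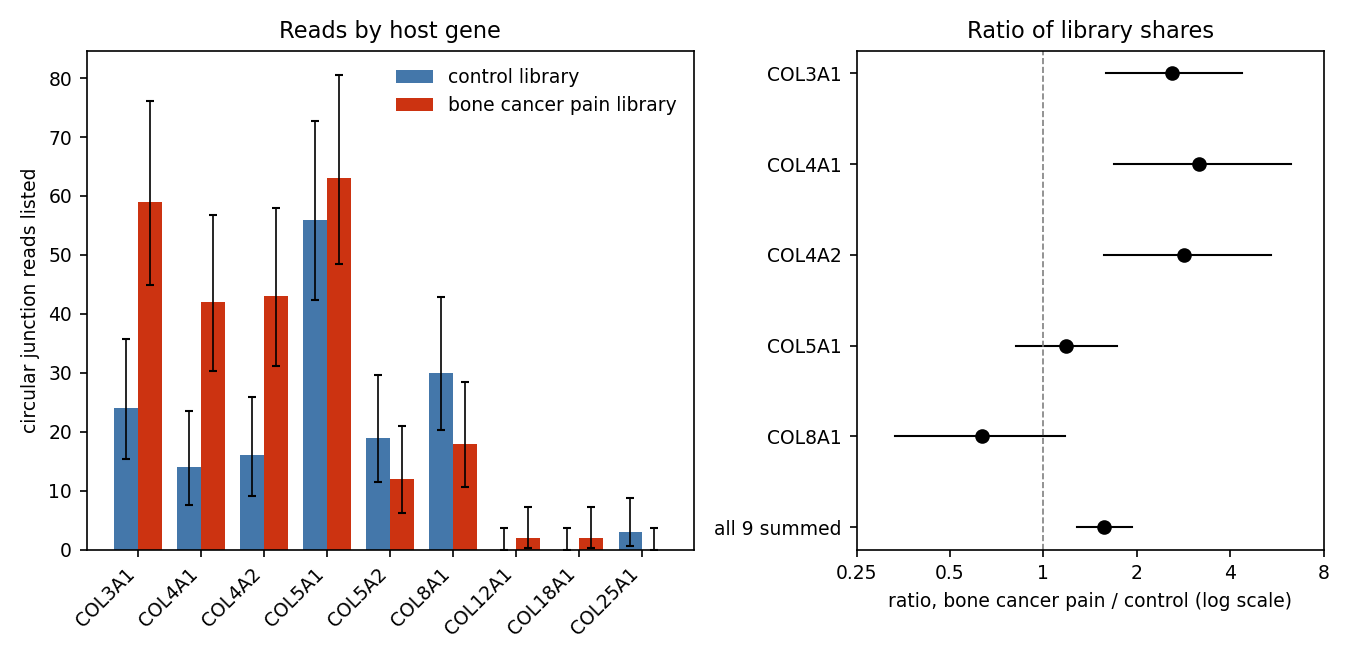
Left, circular junction reads listed for each collagen gene (vertical axis, reads) in the control library (blue) and the pain library (red), with exact 95% Poisson intervals for counting error. Right, the ratio of library shares on a log axis with its exact 95% interval, for the 5 genes with a junction listed in both libraries and for the sum. COL3A1, COL4A1 and COL4A2 lie to the right of 1, and the intervals of COL5A1 and COL8A1 span 1.

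The network collagens diverged from one another. COL4A1 and COL4A2 encode the chains of the most widespread type IV collagen, the scaffold of basement membranes. COL4A1 had 14 control and 42 pain-library reads (3.16, 1.69 to 6.27). COL4A2 had 16 and 43 reads (2.83, 1.56 to 5.39). Both genes were thus higher in the pain library, and the intervals of the control counts (COL4A1 7.65 to 23.5, COL4A2 9.15 to 26.0) did not reach those of the pain-library counts (30.3 to 56.8 and 31.1 to 57.9). COL8A1, a short-chain collagen made by vessel wall cells, went the other way in value, with 30 and 18 reads (0.63, 0.33 to 1.17), an interval that includes 1. The class as a whole had 60 and 103 reads (1.81, 1.30 to 2.53). On junctions in both libraries the class had 38 and 47 reads (1.30, 0.83 to 2.06), an interval that includes 1.

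The 2 type IV genes lie side by side on chromosome 13 in the table. Their pairing is also seen in the rat assembly, where they are read in opposite directions from start sites 77 bases apart. The sequence between these starts is shown because it is the DNA that both genes have in common. It comes from RefSeq (build GRCr8, strand +, chr16:84885347-84885646), and the capitals mark the 76 bases between the start of Col4a2, read leftward, and that of Col4a1, read rightward.
Col4a1 promoter: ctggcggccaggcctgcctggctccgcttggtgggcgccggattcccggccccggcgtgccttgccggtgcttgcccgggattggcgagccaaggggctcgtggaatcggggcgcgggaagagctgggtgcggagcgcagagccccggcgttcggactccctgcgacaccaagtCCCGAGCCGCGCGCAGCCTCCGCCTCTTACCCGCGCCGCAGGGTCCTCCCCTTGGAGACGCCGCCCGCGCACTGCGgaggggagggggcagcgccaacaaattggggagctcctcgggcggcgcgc
The window holds GGGCGG, the core of the GC box, at 2 places counting both strands, 1 of them within the capitals. It holds CCAAT at 2 places counting both strands, 0 of them within the capitals. Of 33469 rat promoter windows of 300 bases, 33.1% held GGGCGG and 37.5% held CCAAT. A match is a description of letters, and junction reads do not measure promoter activity.

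The COL4A1 reads were spread over 8 junctions (chromosome 13, 110822894 to 110866362). The junction from 110822894 to 110828815 had 4 control and 11 pain-library reads (2.90, 0.86 to 12.5). The junction from 110831666 to 110833667 had 5 and 3 reads (0.63, 0.098 to 3.25). These were the 2 junctions listed in both libraries, and neither interval excluded 1. A further 4 junctions were listed for the pain library alone. The junction from 110861204 to 110866173 had 11 reads there, that from 110827687 to 110829071 had 8, and that from 110859750 to 110866362 had 7. The fourth, from 110863994 to 110866362, had 2 reads. The control library alone had 2 junctions, with 3 and 2 reads. In sum, 28 of the 42 pain-library reads and 5 of the 14 control reads sat on junctions that the other library did not list. Over all 9 collagens, junctions in both libraries held 66.7% of control and 56.4% of pain-library reads, against 89.8% and 89.1% for other hosts. These shares were not matched on depth, and the median junction had 3 reads in the collagens and 5 in other hosts. On the shared junctions COL4A1 had 9 and 14 reads (1.64, 0.66 to 4.30), an interval that includes 1.

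COL4A2 also had 8 junctions (111090984 to 111155521). Its shared junction, from 111143580 to 111144524, had 7 and 15 reads (2.26, 0.87 to 6.55). The junction from 111114507 to 111132737 had 20 reads in the pain library, 46.5% of the gene's reads there, with no listing in the control. The gene's sum without this junction was 16 and 23 reads (1.52, 0.77 to 3.07), so the 2-fold size rests on that junction. The other pain-library junctions had 4, 2 and 2 reads. Those of the control library had 5, 2 and 2. The 5-read control junction (111102026 to 111109782) and the 4-read pain-library junction (111102035 to 111109782) shared their upper end and differed by 9 bases at their lower end.

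COL8A1 had 4 junctions (chromosome 3), all 4 listed in the control and 1 in the pain library. The main junction, from 99394504 to 99396732, spanned 2229 bp and had 22 control and 18 pain-library reads (0.86, 0.44 to 1.69). It took 73.3% of the gene's control reads and 100% of its pain-library reads. A second junction used the same lower end and ran to 99397360, with 4 control reads. A long one, from 99410243 to 99463865 (53623 bp), and a short one, from 99513194 to 99514021, had 2 control reads each. The difference of the COL8A1 sums, 30 and 18 reads, came from 8 control reads on those 3 junctions together with the 4-read gap at the main one. One more junction (99461054 to 99463865) carried COL8A1 together with small RNA names in its host field. It fell outside the rule and had 0 and 2 reads, with which COL8A1 came to 30 and 20 (0.70, 0.38 to 1.28).

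**Figure D2:**
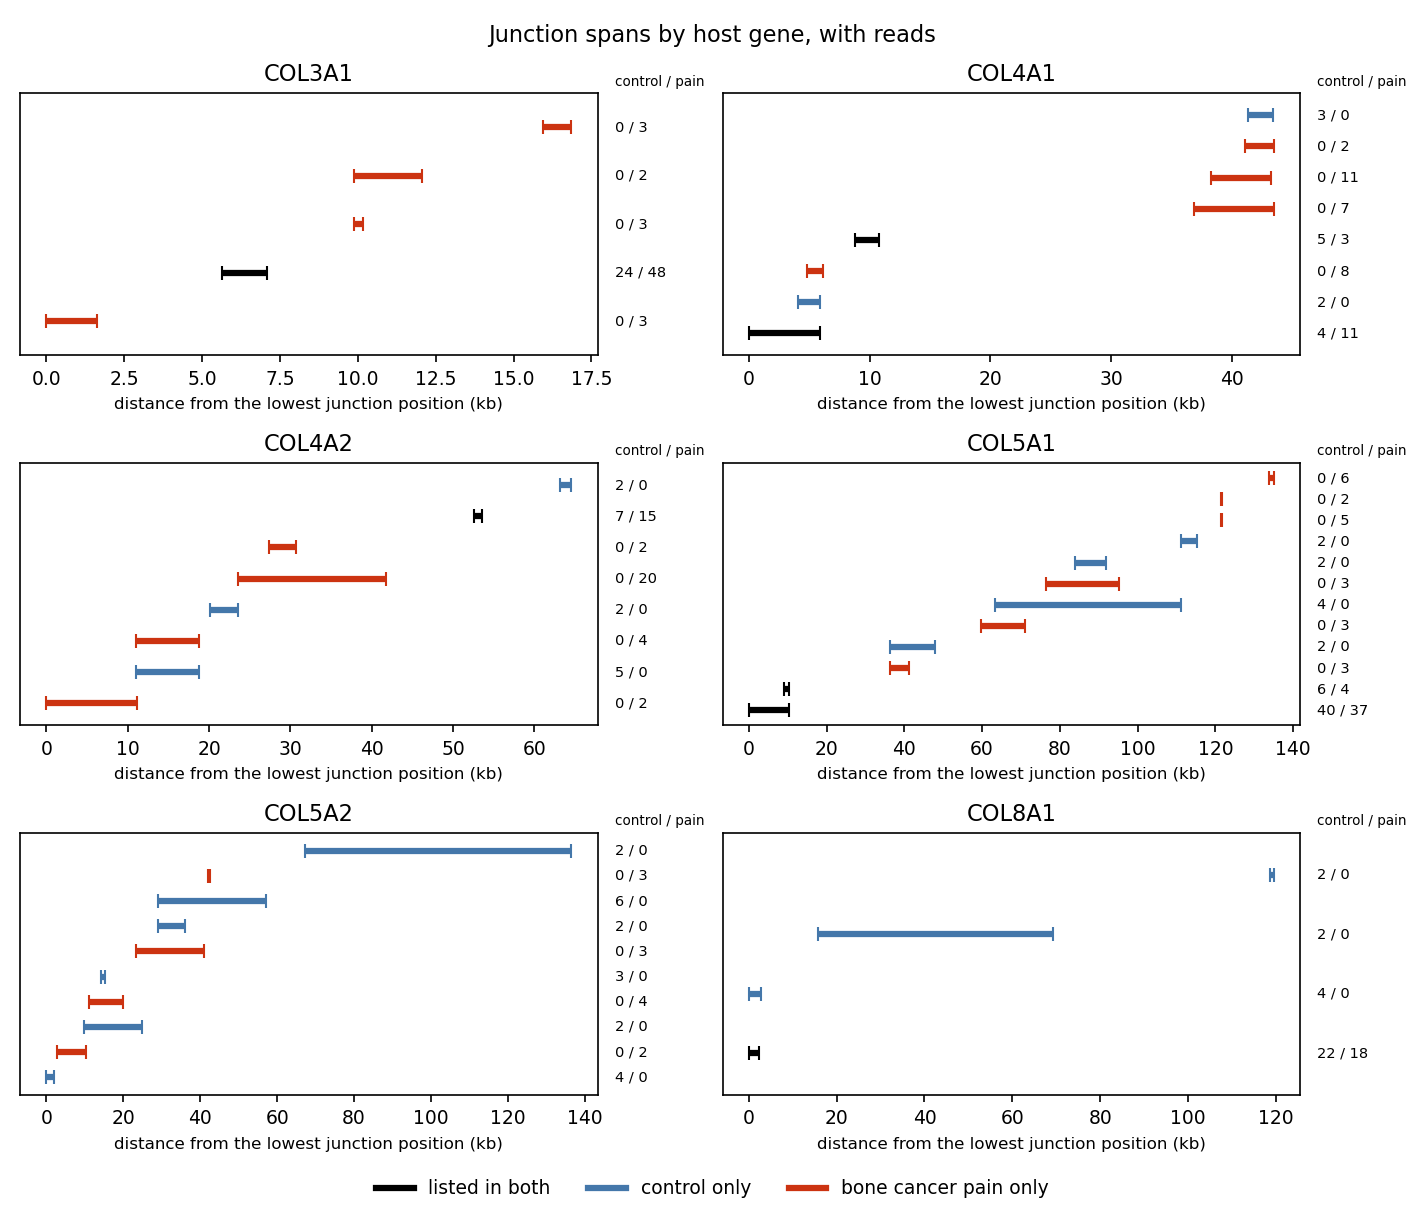
Spans of the junctions of the 6 collagens with 10 or more reads, as distance in kb from the lowest junction position of each gene. Black bars were listed in both libraries, blue in the control alone and red in the pain library alone, and the numbers at the right are control and pain-library reads. COL5A2 shows no black bar, and the reads of COL3A1 and COL8A1 sit mainly on 1 black bar each.

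The fibrillar collagens had, on junctions in both libraries, 70 control and 89 pain-library reads (1.34, 0.97 to 1.86), an interval that includes 1. Over all their junctions they had 99 control and 134 pain-library reads (1.43, 1.09 to 1.87). COL3A1, the chain of type III collagen of vessel walls and soft tissue, matched that gap in reads on its own, with 24 and 59 reads (2.59, 1.59 to 4.36). Its main junction (chromosome 2, 189859772 to 189861222, 1451 bp) had all 24 control reads and 48 pain-library reads, and its ratio was 2.11 (1.27 to 3.60). This was the single collagen junction in both libraries whose interval excluded 1. The other 4 COL3A1 junctions had 3, 3, 3 and 2 reads, each in the pain library alone. On the shared junction with the most reads of each gene, COL3A1 was thus at 2.11, COL4A1 at 2.90 and COL4A2 at 2.26. The latter pair had fewer reads and intervals that include 1, and the other shared junction of COL4A1 was at 0.63. COL5A1 was at 0.98 and COL8A1 at 0.86 on theirs, with intervals that include 1.

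COL5A1, a type V chain that helps to start fibrils, had 56 and 63 reads (1.19, 0.81 to 1.73) on 12 junctions of chromosome 9. Its main junction, from 137582758 to 137593179 (hsa_circ_0007482), had 40 and 37 reads (0.98, 0.61 to 1.56). A second catalogued junction ending at the same place, from 137591755 to 137593179 (hsa_circ_0089430), had 6 and 4 (0.70, 0.15 to 2.96). The third catalogued junction, from 137716446 to 137717750 (hsa_circ_0003596), had 6 reads in the pain library and was not listed in the control. The remaining 9 junctions of COL5A1 had 2 to 5 reads, each in 1 library. COL5A1 was thus close to even on its main junction, and its smaller junctions gave 10 control and 22 pain-library reads outside the 2 shared ones.

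COL5A2, the partner chain of COL5A1 in type V collagen, had 19 control and 12 pain-library reads on 10 junctions, and 0 of them were listed in both libraries. No ratio is given for it. The control library had 6 of these junctions with 2 to 6 reads and the pain library the other 4 with 2 to 4. The junction with the most reads, from 189936766 to 189964856 on chromosome 2, had 6 control reads. Of 373 hosts with 8 or more junctions, 2 had so low a share in both libraries, COL5A2 included, and the median host had 45.5% of its junctions in both. These hosts were not matched on reads. Of other hosts' junctions with 2 to 4 reads, 3.97% were in both.

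The other 3 collagens had 1 junction each. COL12A1, which decorates fibrils, had 2 pain-library reads (chromosome 6, 75898078 to 75902071). COL18A1, a basement membrane collagen from which endostatin is cut, had 2 pain-library reads (chromosome 21, 46913095 to 46913489). COL25A1, a membrane collagen of neurons, had 3 control reads (chromosome 4, 109858964 to 109895715, hsa_circ_0070627). None of the 3 was listed in the other library, and the values lie at or near the lowest that the table lists. A second COL25A1 junction (110132709 to 110134841), listed with small RNA names and outside the rule, had 0 and 3 reads.

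At the level of single junctions, 7 of the 50 were listed in both libraries, 19 in the control alone and 24 in the pain library alone. The 7 shared ones had 108 and 136 reads (1.33, 1.02 to 1.73), and the 43 others had 54 and 105. Among the 8 junctions with 10 or more reads, 5 were higher by the same size rule and 0 lower, where 16.8% of all 4974 such junctions were higher and 16.7% were lower. The 5 were the main junction of COL3A1, 2 of COL4A1 and 2 of COL4A2, of which 1 junction of each type IV gene was not listed in the control. Those 2, with 11 and 20 reads, passed the read minimum on pain-library reads alone, so their call was fixed once they passed. The shared junctions of COL4A1 (4 and 11 reads) and COL4A2 (7 and 15) had under 10 control reads. The count of 5 is therefore not independent of the minimum. The median log2 ratio over all 8 was 1.09, against -0.01 for all 4974. The other 3 were the main junctions of COL5A1 and COL8A1 and the second one of COL5A1.

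Collagen junctions differed from those of other hosts in ways that the choice of genes did not use. A circBase identifier was attached to 4 of the 50 (8%, 2.22 to 19.2), against 58.8% (58.0 to 59.6) of 15057 junctions of other hosts. Of those 4, 3 belonged to COL5A1 and 1 to COL25A1, and the junctions of the other 7 genes, the main ones of COL3A1 and COL8A1 included, had none. The gap was present at each depth. With 2 to 4 reads, 1 of 35 collagen junctions was catalogued (2.86%, 0.072 to 14.9) against 42.3% (41.1 to 43.4) of others, and with 10 or more reads 2 of 8 (25%, 3.19 to 65.1) against 80.5% (79.4 to 81.6). Junctions of 1 gene share their source, so these intervals, which treat junctions as independent, are too narrow.

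**Figure D3:**
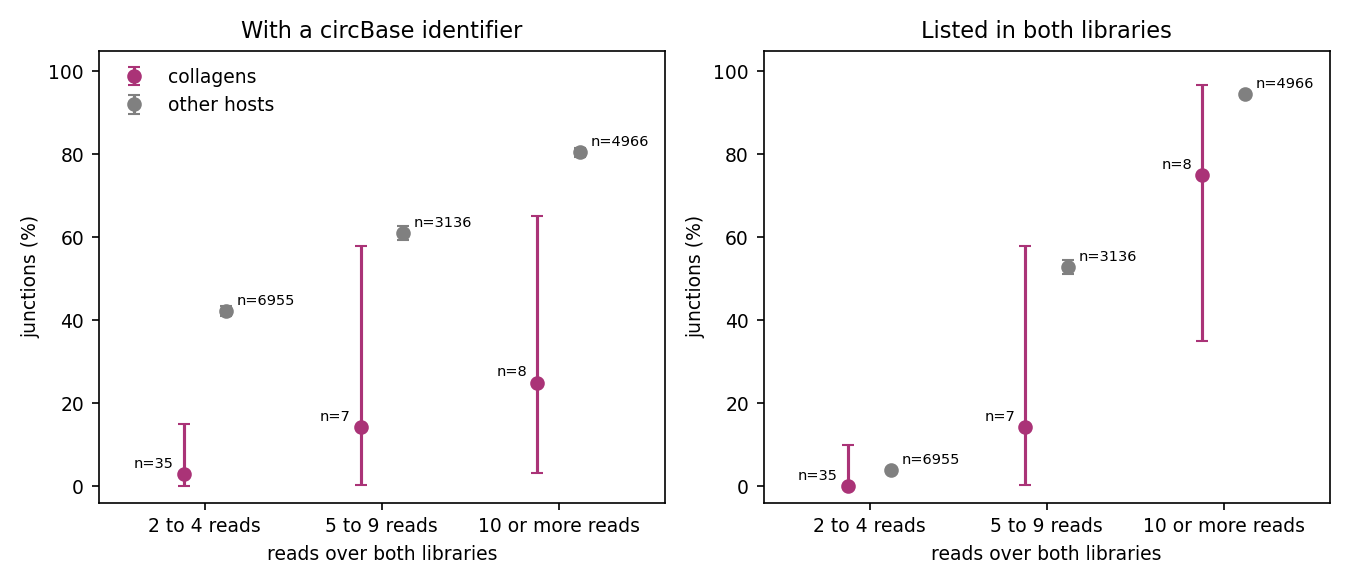
Share of junctions (vertical axis, percent) that had a circBase identifier (left) or were listed in both libraries (right), by reads over both libraries, for the collagens (purple) and all other hosts (grey), with exact 95% binomial intervals and the number of junctions. At each depth the collagen share with an identifier is the lower, 2.86% against 42.3% at 2 to 4 reads.

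Reads followed the same split. Catalogued collagen junctions had 49 control and 47 pain-library reads (1.01, 0.66 to 1.54), and those without an identifier had 113 and 194 (1.81, 1.43 to 2.30). Among other hosts, catalogued junctions were at 0.97 (0.96 to 0.98) and those without an identifier at 1.12 (1.10 to 1.14). The higher collagen sum in the pain library therefore lay on junctions without an identifier. COL5A1 held 46 of the 49 catalogued control reads and all 47 catalogued pain-library reads. The split by identifier was thus close to a split between the catalogued junctions of COL5A1 and all other collagen junctions. Junctions without an identifier were also somewhat more frequent among reads of other hosts in the pain library. The part of this shift in the collagen values was not tested.

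Sharing between the libraries was lower too, with 7 of 50 collagen junctions in both (14.0%, 5.82 to 26.7) against 44.0% (43.2 to 44.8) of other hosts' junctions. Collagen junctions had a median of 3 reads and those of other hosts 5, and a junction needs 2 reads in each library to be listed in both. With 2 to 4 reads, 0 of 35 collagen junctions were in both (0 to 10.003%) against 3.97% of other hosts' junctions. With 5 to 9 reads, 1 of 7 was in both (14.3%, 0.36 to 57.9) against 52.9% (51.1 to 54.7), and with 10 or more reads 6 of 8 (75.0%, 34.9 to 96.8) against 94.5% (93.8 to 95.1). At each of these depths the share of other hosts lay inside the collagen interval. Collagen junctions spanned a median of 3705 bp and those of other hosts 5811 bp. Within hosts of 4 or more junctions, 16 of 47 collagen junctions (34.0%) had an end in common with another junction of the gene, against 78.5% for other hosts.

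Exons that encode the helix of fibrillar collagens are commonly built from units of 9 bases, 1 for each run of 3 amino acids. A distance between ends of 2 junctions is not an exon length. Ends of junctions on the same side of a gene that lay within 200 bases of each other formed 6 pairs in the collagens. Of these, 4 were a multiple of 9 bases apart (66.7%, 22.3 to 95.7), against 23 of 351 such pairs in other hosts (6.55%, 4.20 to 9.67). The 4 pairs came from 2 sites, both in type IV genes. The remaining pairs, both in the fibrillar COL5A1, lay 44 and 19 bases apart and were not divisible by 9. In COL4A1 the upper ends 110866173, 110866290 and 110866362 lay 117, 72 and 189 bases from each other, and in COL4A2 the lower ends 111102026 and 111102035 lay 9 apart. In 2 further places the start of one junction and the end of another enclosed a short stretch (up to 200 bases) divisible by 9, of 54 bases in COL5A1 (137693800 to 137693853) and of 27 in COL4A2 (111114507 to 111114533). COL4A2 also had 2 enclosed stretches not divisible by 9, of 111 and 102 bases, which makes 2 of 4 divisible (50%, 6.76 to 93.2), against 128 of 1047 such stretches in other hosts (12.2%, 10.3 to 14.4). Whether these ends are exon borders was not tested, since no annotation of the table's build was used. The pairs are few and those of a site are not independent.

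Genes that act on collagens lay on both sides of a ratio of 1. Of 35 other collagen genes, among them COL1A1, COL1A2 and the COL6 chains, 0 were the sole host named for a circRNA. The member collagens were chosen with earlier results of these data known, so this count is not independent of that choice. Junctions with several host names were not searched for this list and the other lists of related genes. In the list for folding, modification and cross-linking, 12 of 40 genes had a circRNA. Of the 7 with 10 or more reads, 1 was higher, 0 lower and 6 between, with a median log2 ratio of -0.30 against -0.03 for all hosts. Of all hosts with 10 or more reads, 13.3% were higher and 14.2% lower. TLL1, a protease that trims procollagens, had 22 and 40 reads (1.92, 1.11 to 3.39). PLOD2, which hydroxylates lysines for cross-links, had 610 and 942 (1.63, 1.47 to 1.81). COLGALT1, which adds galactose to those lysines, had 15 and 8 (0.56, 0.21 to 1.41). P4HB, a subunit of the enzyme that hydroxylates prolines, had 106 and 71 (0.71, 0.52 to 0.96). The higher member was LOXL2, a cross-linking oxidase, with 2 and 12 reads (6.33, 1.41 to 58.2), named after its values were seen.

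Among 10 collagen receptors, 2 had a circRNA, and 1 had 10 or more reads. This was MRC2, which takes up collagen fragments, and it was lower, with 26 and 7 reads (0.28, 0.10 to 0.67). Among 15 genes of collagen breakdown, 2 had a circRNA, and 1 had enough reads, TIMP2, an inhibitor of matrix proteases, with 10 pain-library reads and none listed in the control, named after its values were seen. Of 21 matrix partners, 9 had a circRNA. With 10 or more reads, 1 of 8 was higher, 2 lower and 5 between, and the median was -0.11. Over all hosts the shares were 13.3% higher and 14.2% lower. FN1, the fibronectin gene, had 24 and 61 reads (2.68, 1.65 to 4.49), near the values of COL3A1. The fibrillin FBN1 had 65 and 76 (1.23, 0.87 to 1.74) and FBN2 18 and 11 (0.64, 0.28 to 1.44). SPARC, a collagen-binding glycoprotein, went the other way with 69 and 27 (0.41, 0.25 to 0.65). The second lower member was THBS1, with 12 and 4 reads and no junction in both, named after its values were seen.

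Of 14 genes of TGF-beta signalling, a main inducer of collagen genes, 11 had a circRNA. With 10 or more reads, 2 of 9 were higher, 0 lower and 7 between (median 0.14), beside 13.3% higher and 14.2% lower of all hosts. The higher ones were the SMAD corepressors SKI, with 7 and 18 reads (2.71, 1.08 to 7.68), and SKIL, with 24 and 53 (2.33, 1.41 to 3.94). The ubiquitin ligase SMURF2 had 162 and 113 (0.74, 0.57 to 0.94) and the receptor TGFBR2 20 and 15 (0.79, 0.38 to 1.62). Of 27 genes listed for the ERK cascade, 17 had a circRNA. With 10 or more reads, 1 of 8 was higher, 0 lower and 7 between (median 0.09), beside the same shares of all hosts. The kinase MAP2K1 had 40 and 46 reads (1.21, 0.78 to 1.90). The RAS regulators NF1 and SOS2 had 72 and 55 (0.81, 0.56 to 1.16) and 23 and 18 (0.83, 0.42 to 1.60). The higher member was the kinase BRAF, with 2 and 12 reads (6.33, 1.41 to 58.2), named after its values were seen.

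Markers of cells that make collagen were looked up among the hosts, with no share over all genes to set beside the counts. Of 12 fibroblast markers, 1 was listed (FBLN2, 14 control and 0 pain-library reads), with none for PDGFRA, PDGFRB and THY1. Of 12 endothelial markers, 4 were listed, with 24 and 23 reads in sum and none for PECAM1, CDH5 and VWF. Of 10 pericyte and smooth muscle markers, 3 were listed, with 25 and 4 reads. None was listed for the 15 neuronal, 12 microglial, 10 skeletal muscle, 10 blood or 10 bone and cartilage markers. Listed reads were 2 and 3 for oligodendrocytes (MBP, 1 of 12 markers), 0 and 4 for astrocytes (GJA1, 1 of 9) and 38 and 50 for carcinoma epithelium (ERBB2 and KRT7, 2 of 12). The sums rest on 1 gene for fibroblasts, 3 for pericytes and smooth muscle and 4 for endothelial cells, so none stands for its cell type. A gene without a listed circRNA may still be transcribed, so these counts do not give the cells present, and their part in the collagen values was not tested.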

How the data were processed

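Total RNA depleted of ribosomal RNA was treated with 16 units of RNase R, which digests linear RNA, for 15 minutes at 37 °C and made into strand-marked libraries, per the labels' protocols. CASAVA 1.8, BWA and rn6 appear in the submitters' processing notes without a role. The caller of circRNAs is not given in the sources used here. Deposited values are headed TPM but were read as RPM, since they hold no length term. Every value above the placeholder of 0.001 (100%) equalled whole reads to within 0.05 of a read, which gave the reads used here. The placeholder was taken as 0.

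Host sums took junctions with 1 name in the host field, leaving out 2082 with several and 71 with none, a date or a small RNA only. The 17260 junctions considered are those left after removing chromosome Y and the X-inactivation genes. Ratios of library shares have exact conditional binomial (Clopper-Pearson) intervals and are given where a junction was listed in both libraries. Markers were also searched for in host fields that named small RNAs beside 1 gene. Members and lists were chosen with earlier results of these data known. Named genes were the 9 collagens, their junctions with 10 or more reads or else the one with the most, and, of each list, the 2 highest and 2 lowest hosts with 20 or more reads. Some results that this rule names are not reported here. Other settings were median of ratios and trimmed mean (TMM) scaling, other read minimums, reads added and folds, and sums without the top junction or over part of the junctions. The size rule and intervals were tested on simulated data. Python 3.11.15, pandas 2.3.3, scipy 1.17.1, numpy 2.4.6 and matplotlib 3.10.9 were used.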

Additional observations from a re-analysis of the deposited data

How the results depend on the processing

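Of 71 ratios under other settings, 67 stayed within the interval of the reported value and 4 fell below it. Some of the 67 came from settings that left the reads unchanged, and some were lower than reported. Staying within did not keep an interval above 1. Over junctions in both libraries, COL4A2 was at 2.26 (0.87 to 6.55), the fibrillar class at 1.34 (0.97 to 1.86) and the network class at 1.30 (0.83 to 2.06). The 67 include all 30 under median of ratios and TMM scaling. These shift log2 ratios by -0.08 and 0.002, which is small against the intervals. No ratio whose reported interval excluded 1 crossed to the other side of 1. Crossing was not counted where the reported interval included 1. Among those, COL5A1 went from 1.19 to 0.94 over junctions in both libraries. The 4 lower ratios were as follows. With circBase identifiers only, which left mainly COL5A1 junctions, the sum of the 9 collagens was at 1.01 and the fibrillar class at 1.08. Over junctions in both libraries COL4A1 was at 1.64, and without its 20-read junction, a setting chosen after seeing the data, COL4A2 was at 1.52. Under median of ratios scaling, 4 of 8 collagen junctions were higher and 0 lower (15.3% and 18.3% of all). The counts moved with the read minimum. With 5 or more reads, 9 of 15 collagen junctions were higher and 2 lower (21.8% and 21.8% of all). With 20 or more, 3 of 5 were higher (11.1% of all). With no minimum, 27 of 50 junctions were higher and 19 lower (33.9% and 34.0%), and 5 of 9 genes were higher and 1 lower (22.6% and 25%). At a ratio of 1.5, 1 of 6 genes was lower (25.1%). Over junctions in both libraries only, 2 of 5 genes were higher and 0 lower (10.2% and 11.2% of all). COL3A1, COL4A2 and COL8A1 gave no ratio without their top junction, which was their one shared junction, and COL5A2, COL12A1, COL18A1 and COL25A1 gave none. Leaving out a replicate was not possible. No paired analysis was possible because each group had 1 library. Depth limits the junction values, since 35 of the 50 junctions had 2 to 4 reads.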
